A study of Mus musculus with 12 samples.

Results

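The genes described here are 36 mouse genes of the NRF2 system and of the antioxidant enzymes that surround it, taken from a list of gene names. The list was chosen with earlier results of these data known. Of the 36, 30 had a probe set that the platform table assigns to 1 gene, among 30464 genes named in that way, and 29 were bright enough to be tested, among 18119 genes tested. Nqo1 had a probe set but stayed below the brightness filter. Gclm, Prdx1 and Tkt occurred only on probe sets that list several genes and are given no value, and no probe set was listed for Prdx5, Prdx6 and G6pdx in the table used.

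RNA was measured on 12 Affymetrix arrays in the macrophage-like mouse cell line RAW264.7, in 4 groups of 3 arrays after 24 h in each medium. KO medium was conditioned by PyMT-41C tumour cells that lack JMJD6, a 2-oxoglutarate-dependent oxygenase (replicates 1, 2 and 3). SCR medium with CSH was conditioned by SCR PyMT-41C cells and contained CSH, given in the labels as blocking the receptor of ANXA-1 (replicates 1, 2 and 4). SCR medium was conditioned by SCR PyMT-41C cells and had no CSH (replicates 1, 3 and 4), and normal medium was not conditioned (replicates 2, 3 and 4). The mix was 50% conditioned medium and the rest RPMI with 10% FBS. JMJD6 was removed in the cells that made the medium and not in the macrophages, so the arrays cannot check the knockout. All conditioned medium came from PyMT-41C cells. Against normal medium, effects particular to these cells therefore cannot be told apart from those of conditioning in general. No group with CSH in plain medium or with a vehicle is labelled, and the labels do not say whether the KO cells were 1 clone or whether replicates were separate cultures. The p-values therefore measure the spread between these arrays, which may be technical, and their number limits the precision.

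NRF2, encoded by Nfe2l2, is the transcription factor that switches on many antioxidant and detoxifying enzymes. In unstressed cells KEAP1 holds it for degradation, and oxidants or electrophiles that modify KEAP1 let NRF2 reach the nucleus, where it binds antioxidant response elements together with a small MAF protein. BACH1 competes for the same elements as a repressor, and p62, the product of Sqstm1, can draw KEAP1 away into autophagy. In macrophages this system buffers the oxidants that the cells make themselves, and its enzymes depend on glutathione, thioredoxin and NADPH.

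The signals are in log2 units, as RMA gives them, so a difference of 1 is a change of 2-fold, and a probe's level says nothing against another probe's. A gene was called changed where the Benjamini-Hochberg adjusted p of limma's moderated test over all genes tested was below 0.05. Array medians over all probe sets ran from 5.40 to 5.52. Of 10 macrophage markers 9 had a mean above the array median, with a list mean of 12.21 to 12.32 in KO medium, 12.13 to 12.39 in SCR medium with CSH, 12.15 to 12.29 in SCR medium and 12.42 to 12.49 in normal medium, and Mertk was the marker at array background. Of the 9 macrophage markers tested, 4 were called lower in SCR medium than in normal medium, 2 higher and 3 neither. Adgre1 (-1.45), Csf1r (-1.79), Ptprc (-0.50) and Cd68 (-0.15) fell, while Itgam (0.97) and Cd14 (0.61) rose. Of 12 epithelial and carcinoma markers 4 had a mean above the array median, and their list mean was 5.10 to 5.11 in KO medium, 5.07 to 5.12 in SCR medium with CSH, 5.06 to 5.13 in SCR medium and 5.04 to 5.05 in normal medium. Csn3 was called among these (0.46, adjusted p = 0.00135), with a mean of 5.68 in SCR medium and 5.22 in normal medium, while Epcam, Krt18 and Cdh1 stayed below 5 in the group means. None of 4 fibroblast and 6 T and B cell markers with a name had a mean above the array median. The part of these markers in the results was not tested, and in such bulk RNA fewer cells of a type and less RNA per cell cannot be told apart.

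The arrays of SCR medium differed among themselves in most of these genes. SCR replicate 1 was the highest array of its group for 23 of 29 tested genes (45.2% of all genes tested), and SCR replicate 3 was the lowest for 24 (47.4% of all genes tested). The counts of calls are therefore also given without each of these arrays. In other groups, normal replicate 4 was the lowest array for 18 of 29 (49.4% of all genes tested). Replicate 2 of SCR medium with CSH was the lowest for 17 (33% of all genes tested).

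Medium conditioned by SCR tumour cells moved the antioxidant genes in both directions. The largest rises were in Gsto1, Sqstm1, Me1, Txnrd1 and Srxn1, which were 1.8-fold to 3.28-fold higher under SCR medium than under normal medium, and the largest falls were in Txnip, Gstm1, Bach1, Sod1 and Nfe2l2. Nfe2l2 and Keap1 RNA were themselves lower in SCR medium. Against SCR medium, no gene of the 29 passed the test in KO medium or with CSH, and Txnip, the inhibitor of thioredoxin, came nearest in KO medium.

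Of the 29 tested genes, 10 (34.5%) were called higher under SCR medium than under normal medium, where 19.3% of all genes tested were. A further 9 (31%) were called lower, where 15.8% of all genes tested were. Without SCR replicate 1 the counts were 7 higher and 10 lower, and without SCR replicate 3 they were 11 higher and 8 lower. Over all genes tested, 3504 were called higher with every array and 3726 without SCR replicate 3, so that count rose too. The other all-gene counts without these arrays are not given here. Whether the shifts are particular to the 29 genes was therefore not tested. Differences of at least 2-fold that were also called numbered 5 (17.2%, against 3.06% of all genes tested). In 20 genes (69%) the 3 SCR arrays did not overlap the 3 normal medium arrays, as in 43.3% of all genes tested. The median difference was -0.02 for these genes and 0.02 for all genes tested, while the median size of the difference, without its sign, was 0.28 and 0.14. The genes were chosen with earlier results of these data known, so their shares above those of all genes may partly reflect that choice. No test was made of the list as a whole.

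**Figure D1:**
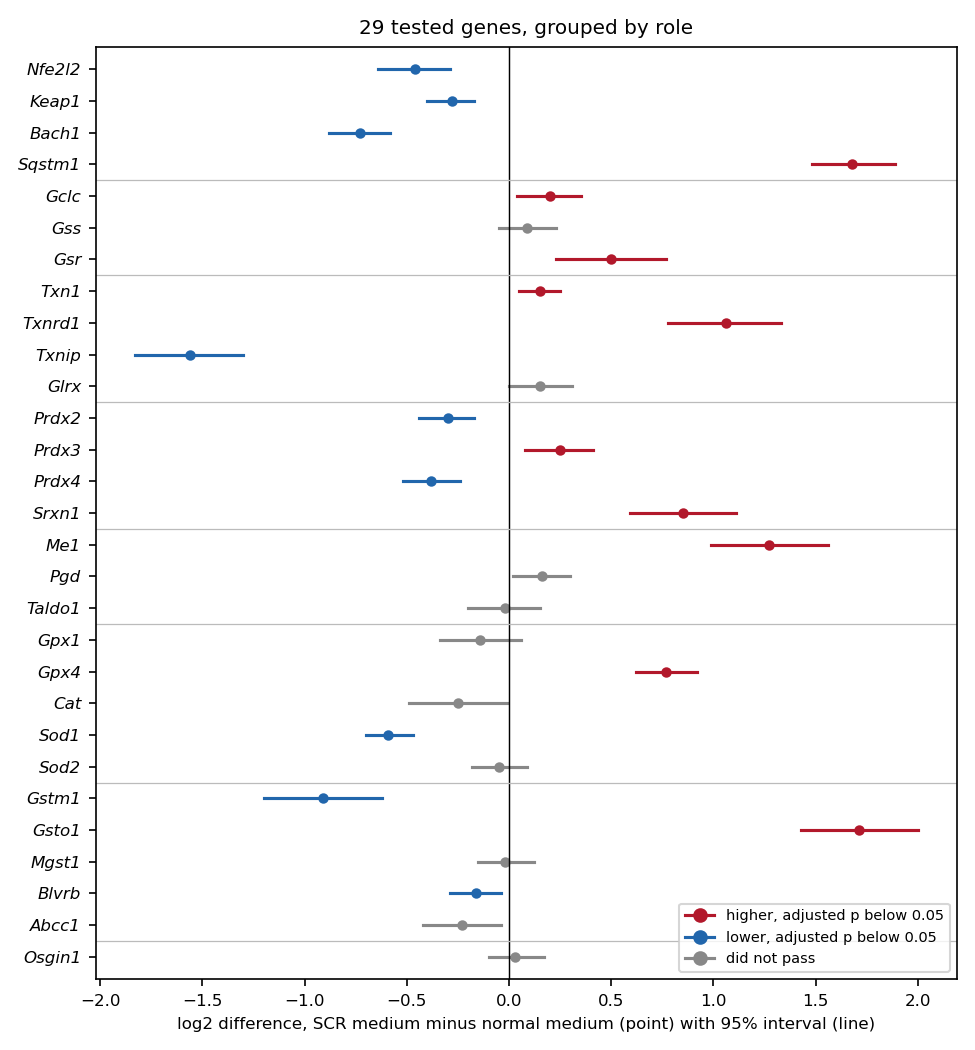
Difference between SCR medium and normal medium for the 29 tested genes (log2 scale, points) with 95% intervals (lines), ordered by role from regulators at the top to Osgin1 at the bottom, with red for called higher, blue for called lower and grey for neither. The differences ran from -1.56 for Txnip to 1.71 for Gsto1, and most roles held points on both sides of 0.

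Promoter windows were read for 32 of the 36 genes from RefSeq sequences of GRCm38.p6, the assembly also called mm10, each 300 bases long from 250 bases before to 50 after the start. The 5 windows shown belong to the genes with the largest changes that hold the antioxidant response element core TGACNNNGC on either strand. They are written 5′ to 3′ along the gene, and capitals mark that core or the related core TGAGNNNGC, on either strand. Me1, Srxn1 and Txnrd1 were called higher under SCR medium than under normal medium, and Nfe2l2 and Sod1 were called lower.
Me1: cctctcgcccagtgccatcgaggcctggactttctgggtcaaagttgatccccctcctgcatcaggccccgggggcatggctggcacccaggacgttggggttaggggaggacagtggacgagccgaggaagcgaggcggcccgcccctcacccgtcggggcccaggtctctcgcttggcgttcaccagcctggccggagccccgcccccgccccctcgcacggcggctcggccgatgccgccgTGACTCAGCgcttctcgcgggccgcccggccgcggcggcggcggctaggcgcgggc
Srxn1: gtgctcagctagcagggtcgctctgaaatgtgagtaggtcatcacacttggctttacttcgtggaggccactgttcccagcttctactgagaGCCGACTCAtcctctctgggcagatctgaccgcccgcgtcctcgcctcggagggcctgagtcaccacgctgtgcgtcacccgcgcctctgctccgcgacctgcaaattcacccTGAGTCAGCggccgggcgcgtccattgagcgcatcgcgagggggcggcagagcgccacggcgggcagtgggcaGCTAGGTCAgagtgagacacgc
Txnrd1: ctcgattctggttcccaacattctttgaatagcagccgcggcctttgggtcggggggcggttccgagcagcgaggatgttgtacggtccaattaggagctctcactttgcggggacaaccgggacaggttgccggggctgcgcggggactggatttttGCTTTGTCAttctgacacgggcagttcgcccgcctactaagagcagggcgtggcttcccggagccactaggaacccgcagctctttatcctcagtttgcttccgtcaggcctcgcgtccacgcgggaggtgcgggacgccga
Nfe2l2: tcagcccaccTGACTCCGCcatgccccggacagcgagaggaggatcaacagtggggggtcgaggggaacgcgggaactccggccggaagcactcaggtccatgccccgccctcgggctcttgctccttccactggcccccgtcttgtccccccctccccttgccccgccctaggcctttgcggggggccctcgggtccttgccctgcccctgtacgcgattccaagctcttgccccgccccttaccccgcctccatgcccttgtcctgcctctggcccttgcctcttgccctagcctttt
Sod1: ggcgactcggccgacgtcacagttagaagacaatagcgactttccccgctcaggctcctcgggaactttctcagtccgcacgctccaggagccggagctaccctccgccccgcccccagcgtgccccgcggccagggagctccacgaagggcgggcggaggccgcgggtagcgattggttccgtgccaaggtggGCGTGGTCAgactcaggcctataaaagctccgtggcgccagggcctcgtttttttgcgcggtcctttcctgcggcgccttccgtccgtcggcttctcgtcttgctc

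The Me1 window lies at chr9:86695865-86696164 on the minus strand, the Srxn1 window at chr2:152105274-152105573 on the plus strand and the Txnrd1 window at chr10:82858956-82859255 on the plus strand. The Nfe2l2 window lies at chr2:75704614-75704913 on the minus strand and the Sod1 window at chr16:90220512-90220811 on the plus strand. In Me1 the match TGACTCAGC lies at -6 from the start and overlaps the AP-1 motif TGACTCA. Txnrd1 holds GCTTTGTCA at -92, and Me1 and Txnrd1 have 2 and 3 windows in the table, of which the shown ones carry the core. In Srxn1 the match GCTAGGTCA lies at 29 and both matches to TGAGNNNGC, TGAGTCAGC at -45 and GCCGACTCA at -158, lie upstream. TGAGTCAGC in Srxn1 also overlaps the AP-1 motif. In Nfe2l2 the match TGACTCCGC lies at -240, and in Sod1 the match GCGTGGTCA at -56.

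Over these windows TGACNNNGC occurred in 10 of 32 of the genes (31.2%), against 14% of 27025 genes in the table. It occurred in 3 of 8 called higher in SCR medium, 2 of 9 called lower and 2 of 9 not called, so windows with the core were found in every class. Gclm, Prdx1 and G6pdx also held the core but had no value, so they are in none of these classes. TGAGNNNGC occurred in 5 of 32 (15.6%, against 19.8% of all genes) and TGACTCA in 5 of 32 (15.6%, against 5.95%). A match is a description of letters and does not show that a factor binds there. No binding was measured.

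Among the regulators, Nfe2l2, Keap1 and Bach1 were lower in SCR medium than in normal medium and Sqstm1 was higher. Nfe2l2 (chromosome 2, 75675513 to 75704663) read 9.31, 9.23 and 9.35 in SCR medium, against 9.88, 9.66 and 9.74 in normal medium. It read 9.27, 9.36 and 9.13 in KO medium and 9.49, 9.43 and 9.30 in SCR medium with CSH. All 9 arrays of conditioned medium lay below the 3 of normal medium, and the difference of SCR medium from normal medium was -0.46 (SE 0.08, adjusted p = 0.000537). This is the RNA of the factor, whose activity is known to be set largely through its protein.

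Keap1 (chromosome 9, 21229730 to 21239332), the adaptor that marks NRF2 for degradation, read 7.43, 7.45 and 7.33 in KO medium, 7.53, 7.52 and 7.48 in SCR medium with CSH, 7.54, 7.49 and 7.52 in SCR medium, and 7.76, 7.87 and 7.77 in normal medium. Its difference of SCR medium from normal medium was -0.28 (SE 0.05, adjusted p = 0.00112), and all arrays of conditioned medium were below those of normal medium. Bach1 (chromosome 16, 87698954 to 87733346), the repressor at antioxidant response elements, read 9.72, 9.79 and 9.68 in KO medium, 9.87, 10.00 and 9.87 in SCR medium with CSH, 9.92, 9.71 and 9.79 in SCR medium, and 10.48, 10.53 and 10.61 in normal medium. The fall in SCR medium was the largest of the 3 regulators that were lower, at -0.73 (SE 0.07, adjusted p = 4.38e-06), or 1.66-fold.

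Sqstm1 (chromosome 11, 50200152 to 50210820), the autophagy receptor p62 and itself an NRF2 target, moved the other way. It read 15.01, 14.93 and 15.10 in KO medium, 15.08, 14.77 and 15.07 in SCR medium with CSH, and 14.98, 14.79 and 15 in SCR medium, against 13.22, 13.38 and 13.12 in normal medium. The arrays of each conditioned medium stood more than 1 unit above those of normal medium, and SCR medium was 3.21-fold higher (1.68, SE 0.09, adjusted p = 8.72e-08).

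Of the 4 listed genes of glutathione synthesis and recycling 3 were tested and 2 were called higher. Gsr, glutathione reductase, which returns oxidised glutathione to its reduced form, averaged 10.43 ± 0.17 in SCR medium and 9.93 ± 0.16 in normal medium (SD, n = 3 each), a difference of 0.50 (adjusted p = 0.00746). Gclc, the catalytic subunit of the enzyme that limits glutathione synthesis, averaged 10.34 ± 0.14 in SCR medium and 10.14 ± 0.06 in normal medium (SD, n = 3 each), and its difference of 0.20 passed narrowly (adjusted p = 0.0473). That call ended under 15 of 23 alternative settings (adjusted p 0.00538 to 0.178), among them leaving out any 1 array except SCR replicate 3. Gss, glutathione synthetase, differed by 0.09 with a 95% interval of -0.05 to 0.23 and was not called.

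The thioredoxin genes split. Txnrd1 (chromosome 10, 82833951 to 82897724), the reductase that keeps thioredoxin reduced, read 11.37, 11.23 and 11.61 in KO medium, 11.39, 11.12 and 11.45 in SCR medium with CSH, and 11.48, 11.04 and 11.36 in SCR medium, against 10.21, 10.35 and 10.15 in normal medium. No array of conditioned medium overlapped normal medium, and SCR medium was 2.08-fold higher (1.06, SE 0.13, adjusted p = 3.29e-05). Txn1, thioredoxin itself, averaged 15.17 ± 0.05 in SCR medium and 15.02 ± 0.03 in normal medium (SD, n = 3 each), a difference of 0.15 (adjusted p = 0.02). That call ended under 6 of 23 alternative settings. These were quantile normalization, median centring, a replicate block, the 6 arrays alone, and leaving out normal replicate 3 or SCR replicate 1.

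Txnip (chromosome 3, 96557957 to 96561857), whose protein binds and inhibits thioredoxin and also restrains glucose uptake, had the largest fall. It read 14.54, 14.28 and 14.31 in SCR medium, against 15.82, 16.23 and 15.77 in normal medium, and SCR medium was 2.96-fold lower (-1.56, SE 0.12, adjusted p = 8.93e-07). Glrx, glutaredoxin, which removes glutathione from proteins, read 7.42, 7.52 and 7.49 in KO medium, 7.43, 7.64 and 7.41 in SCR medium with CSH, 7.36, 7.37 and 7.39 in SCR medium, and 7.28, 7.27 and 7.11 in normal medium. The SCR arrays all lay above those of normal medium, but the difference of 0.15 did not pass (adjusted p = 0.114).

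Peroxiredoxins reduce peroxides with electrons from thioredoxin, and sulfiredoxin, the product of Srxn1, repairs them after overoxidation. Srxn1 (chromosome 2, 152105524 to 152111376) read 9.42, 9.22 and 9.51 in KO medium, 9.27, 8.95 and 9.30 in SCR medium with CSH, and 9.48, 9.02 and 9.16 in SCR medium, against 8.35, 8.38 and 8.38 in normal medium. All arrays of conditioned medium were higher, and the difference of SCR medium from normal medium was 0.85 (SE 0.12, adjusted p = 0.00012), or 1.8-fold. Of the 3 tested peroxiredoxins 2 were lower and 1 was higher. Prdx2, a cytosolic member, read 10.43, 10.36 and 10.38 in KO medium, 10.55, 10.58 and 10.57 in SCR medium with CSH, 10.54, 10.32 and 10.43 in SCR medium, and 10.72, 10.78 and 10.70 in normal medium. It was lower in SCR medium than in normal medium (-0.30, adjusted p = 0.00193).

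Prdx4, the member of the endoplasmic reticulum, averaged 13.98 ± 0.01 in SCR medium and 14.36 ± 0.15 in normal medium (SD, n = 3 each) and was also lower (-0.38, adjusted p = 0.000429). Prdx3, the mitochondrial member, averaged 10.75 ± 0.15 in SCR medium and 10.50 ± 0.05 in normal medium (SD, n = 3 each) and was higher by 0.25 (adjusted p = 0.0237). The Prdx3 call ended under 6 of 23 alternative settings. These were median centring, a replicate block, the 6 arrays alone, and leaving out normal replicate 2, normal replicate 4 or SCR replicate 1.

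Among the enzymes that supply NADPH, Me1 (chromosome 9, 86581363 to 86695914), cytosolic malic enzyme, was called. It read 10.15, 9.94 and 10.10 in KO medium, 9.87, 9.54 and 9.96 in SCR medium with CSH, and 10.22, 9.73 and 9.99 in SCR medium, against 8.77, 8.79 and 8.56 in normal medium. Every array of conditioned medium exceeded every array of normal medium, and SCR medium was 2.42-fold higher (1.27, SE 0.13, adjusted p = 8.31e-06). The tested pentose phosphate enzymes did not pass. Pgd, which makes NADPH from 6-phosphogluconate, read 10.38, 10.36 and 10.24 in KO medium, 10.51, 10.49 and 10.54 in SCR medium with CSH, 10.50, 10.31 and 10.45 in SCR medium, and 10.30, 10.23 and 10.25 in normal medium. Its difference of SCR medium from normal medium was 0.16 (95% interval 0.02 to 0.30, adjusted p = 0.0712), and that of Taldo1, transaldolase, was -0.02 (95% interval -0.20 to 0.15).

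The 5 enzymes that remove peroxide and superoxide were all tested, and 1 was higher and 1 lower. Gpx4, the glutathione peroxidase that reduces lipid peroxides in membranes, averaged 9.19 ± 0.10 in SCR medium and 8.42 ± 0.07 in normal medium (SD, n = 3 each) and was 1.71-fold higher (0.77, SE 0.07, adjusted p = 2.81e-06). Sod1 (chromosome 16, 90220762 to 90226333), the cytosolic copper and zinc superoxide dismutase, read 15.74, 15.75 and 15.63 in KO medium, 15.79, 15.69 and 15.77 in SCR medium with CSH, and 15.83, 15.70 and 15.71 in SCR medium, against 16.33, 16.29 and 16.38 in normal medium. The SCR arrays were below those of normal medium without overlap, and the difference was -0.59 (SE 0.05, adjusted p = 2.7e-06).

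Sod2, the mitochondrial superoxide dismutase, read 8.01, 7.96 and 7.97 in KO medium, 8.11, 8.21 and 8.11 in SCR medium with CSH, 8.07, 7.99 and 8.03 in SCR medium, and 8.09, 8.18 and 7.96 in normal medium. Its SCR and normal medium arrays overlapped (-0.05, 95% interval -0.18 to 0.09). Catalase (Cat) read 12.09, 11.93 and 11.94 in KO medium, 12.23, 12.06 and 12.28 in SCR medium with CSH, 12.47, 12 and 12.20 in SCR medium, and 12.61, 12.38 and 12.43 in normal medium. Its difference of SCR medium from normal medium was -0.25 (adjusted p = 0.0967), with SCR replicate 1 inside the range of normal medium. Gpx1, the abundant cytosolic glutathione peroxidase, differed by -0.14 (95% interval -0.34 to 0.06) and was not called.

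The detoxifying genes held the largest rise and the second largest fall of the 29. Gsto1 (chromosome 19, 47854973 to 47864790), an omega-class glutathione transferase with thiol transferase activity, read 10.34, 10.13 and 10.58 in KO medium, 10.38, 10.03 and 10.41 in SCR medium with CSH, and 10.42, 10.09 and 10.25 in SCR medium, against 8.48, 8.70 and 8.44 in normal medium. No array of conditioned medium came within 1 unit of normal medium, and SCR medium was 3.28-fold higher (1.71, SE 0.13, adjusted p = 8.58e-07). Gstm1 (chromosome 3, 108012250 to 108017973), a mu-class glutathione transferase, read 9.72, 9.55 and 9.55 in KO medium, 10.25, 9.97 and 9.82 in SCR medium with CSH, and 10.08, 9.68 and 9.92 in SCR medium, against 10.97, 10.56 and 10.89 in normal medium. All arrays of conditioned medium lay below normal medium, and SCR medium was 1.88-fold lower (-0.91, SE 0.13, adjusted p = 0.00015). Gstm1 belongs to a family of near-identical copies, and probes of such families can share signal.

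Blvrb, biliverdin reductase B, averaged 8.27 ± 0.04 in SCR medium and 8.43 ± 0.06 in normal medium (SD, n = 3 each). It was lower by a small amount (-0.16, adjusted p = 0.0386), a call that ended under 7 of 23 alternative settings. These were no filter, median centring, the 6 arrays alone, and leaving out normal replicate 2, normal replicate 3, SCR replicate 3 or SCR replicate 4. Abcc1, the exporter of glutathione conjugates, differed by -0.23 (adjusted p = 0.0541), Mgst1, a membrane-bound glutathione transferase, by -0.02 (95% interval -0.15 to 0.12), and Osgin1, an oxidative stress-induced growth inhibitor, by 0.03 (95% interval -0.10 to 0.17). None of these 3 was called. Nqo1, the quinone reductase often used as a readout of NRF2, read 4.64, 4.59 and 4.62 in KO medium, 4.62, 4.64 and 4.69 in SCR medium with CSH, 4.79, 4.64 and 4.74 in SCR medium, and 4.57, 4.65 and 4.60 in normal medium. These values lay below the median of their arrays, so no change of Nqo1 could be measured here.

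**Figure D2:**
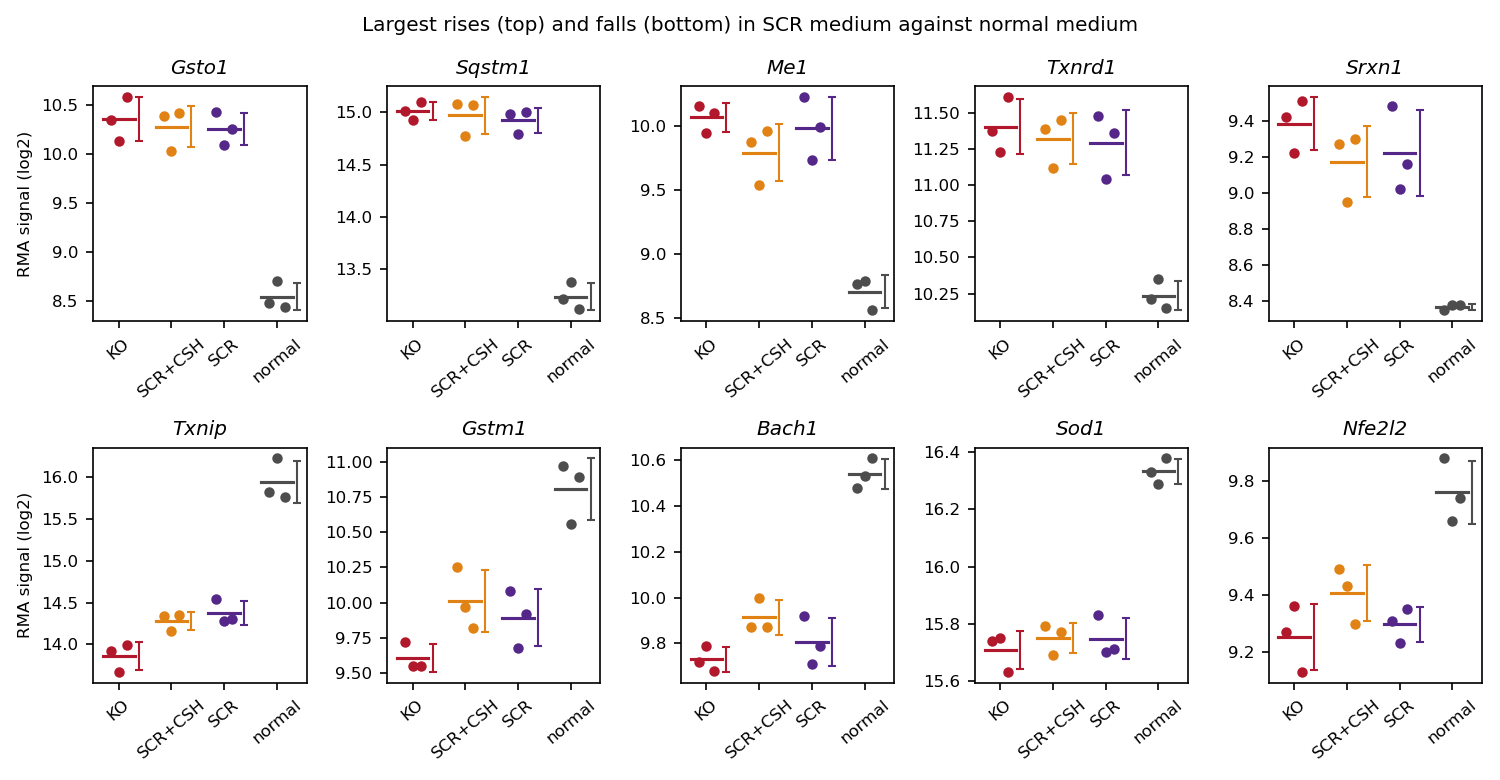
RMA signal (log2) on each of the 12 arrays (points) for the 5 genes with the largest called rises in SCR medium against normal medium (top) and the 5 with the largest called falls (bottom), with the group mean (line) and SD over 3 arrays (bracket). Each panel has its own vertical axis. Arrays of the 3 conditioned media lie on the same side of normal medium in all 10 panels, and Txnip in KO medium lies below the other conditioned media.

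**Figure D3:**
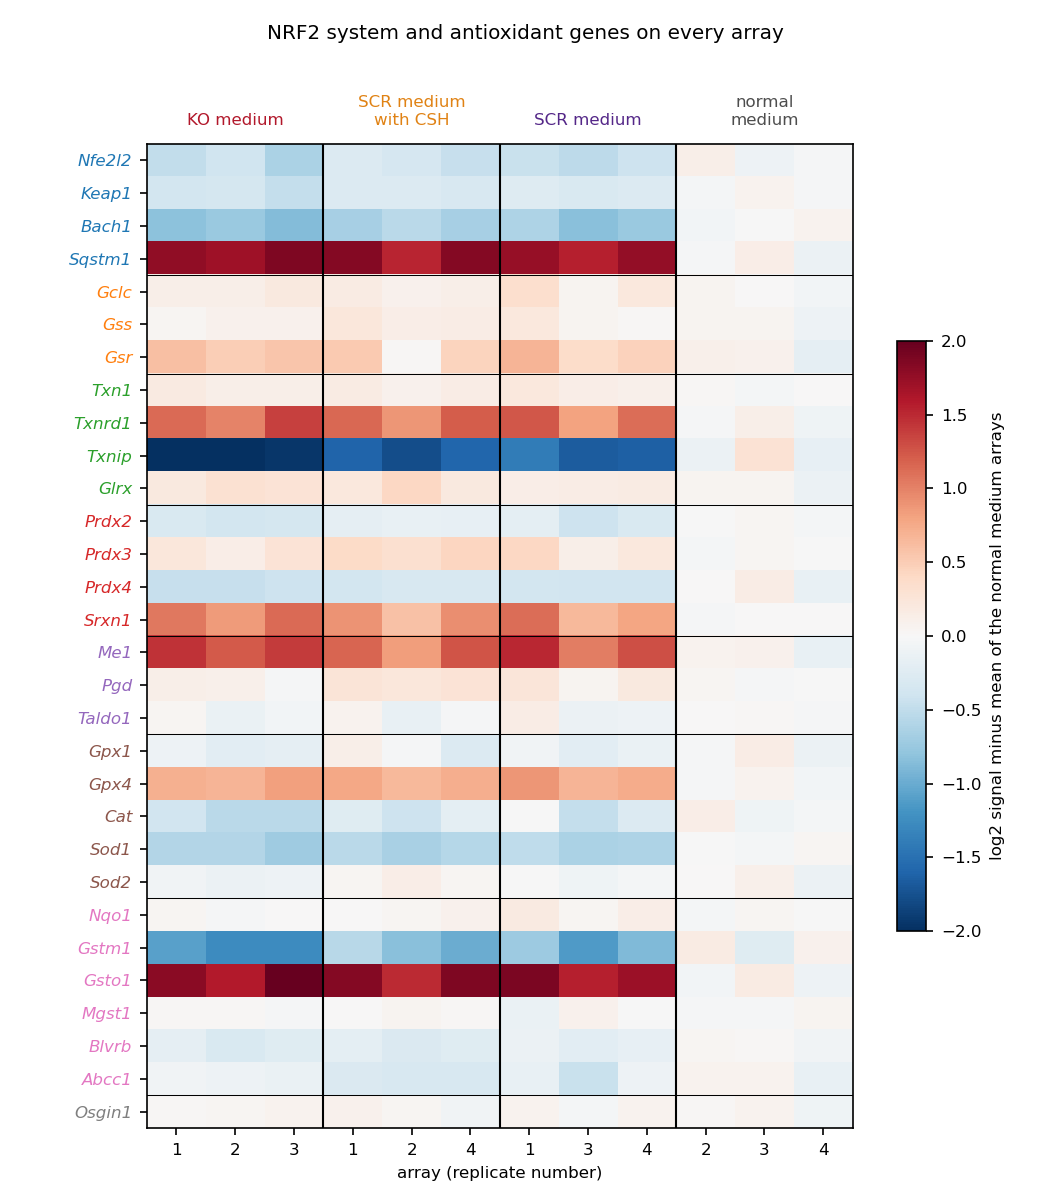
Signal of the 30 genes with a probe set on every array (columns, by group and replicate number) as the log2 difference from the mean of the normal medium arrays, with genes grouped by role and colours ending at -2 and 2. The 9 columns of conditioned medium look alike in most genes, with rises in Sqstm1, Txnrd1, Srxn1, Me1, Gpx4 and Gsto1 and falls in Bach1, Txnip, Sod1 and Gstm1.

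KO medium and SCR medium with CSH were also set against normal medium. These comparisons share the normal medium arrays with the one above, so their values are given side by side and not as further evidence. In KO medium 10 of the 29 genes (34.5%) were called higher (21.4% of all genes tested) and 10 (34.5%) lower (17.6% of all genes tested). In SCR medium with CSH 10 (34.5%) were called higher (20.9% of all genes tested) and 9 (31%) lower (14.9% of all genes tested). Gsto1 differed from normal medium by 1.81 in KO medium, 1.73 in SCR medium with CSH and 1.71 in SCR medium. Sqstm1 differed by 1.77 in KO medium, 1.73 in SCR medium with CSH and 1.68 in SCR medium. Txnip differed by -2.08 in KO medium, -1.66 in SCR medium with CSH and -1.56 in SCR medium.

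Some genes passed the test in only part of these comparisons, and none of those differences between media passed when tested directly. Cat was called lower in KO medium (-0.49, adjusted p = 0.00292) and Glrx higher (0.26, adjusted p = 0.0105), a call that ended without normal replicate 4. In SCR medium with CSH, Glrx (0.27, adjusted p = 0.00824) and Pgd (0.25, adjusted p = 0.00745) were called higher and Abcc1 lower (-0.31, adjusted p = 0.0146). The Abcc1 call ended without normal replicate 2 or normal replicate 3. Gclc was called in neither (0.14 in KO medium, 0.12 in SCR medium with CSH), and Gsr (0.33, adjusted p = 0.0594) and Prdx2 (-0.17, adjusted p = 0.0534) missed the threshold in SCR medium with CSH. Prdx3 in KO medium (0.21, adjusted p = 0.0491) lost its call under 13 of 23 alternative settings, and Txn1 lost its call under 8 in KO medium and 11 in SCR medium with CSH.

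**Figure D4:**
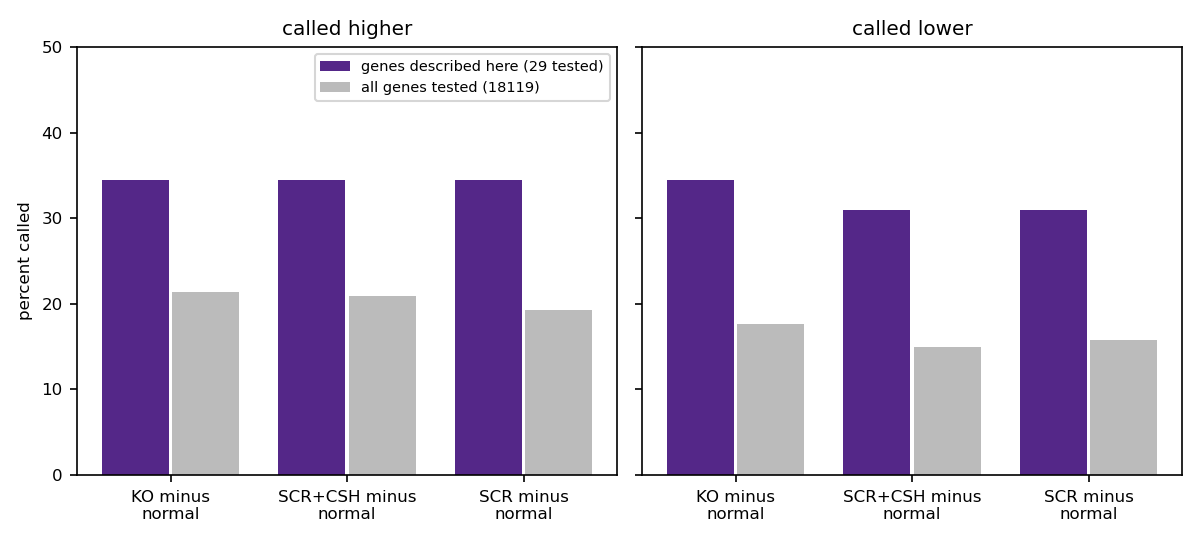
Percent of genes called higher (left) and lower (right) in each conditioned medium against normal medium, for the 29 tested genes (purple) and all 18119 genes tested (grey), on axes that start at 0. The purple bars stand at 34.5% or 31%, and the grey bars between 14.9% and 21.4%. The genes in purple were listed with earlier results of these data known.

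KO medium was set against SCR medium to ask whether loss of JMJD6 in the tumour cells changes what their medium does to these genes. None of the 29 genes was called by limma, higher (0.254% of all genes tested) or lower (0.0166% of all genes tested), and 2 of 29 had an unadjusted p below 0.05, against 5.95% of all genes tested. The median difference was -0.03 for these genes and -0.00 for all genes tested, and the 95% intervals of the 29 genes together ran from -0.78 to 0.42.

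Txnip had the largest difference. It read 13.92, 13.67 and 13.99 in KO medium, against 14.54, 14.28 and 14.31 in SCR medium. In SCR medium with CSH it read 14.34, 14.16 and 14.35. All KO arrays were below all SCR arrays, and the difference was -0.52 (SE 0.12, 95% interval -0.78 to -0.25, unadjusted p = 0.00101, adjusted p = 0.168). It was called only where arrays were weighted by their spread (adjusted p = 0.0208), a setting that gave SCR replicate 4 a weight of 6.14, and its adjusted p ran up to 0.465 over the 23 alternatives. By p-value Cat came next at -0.24 (95% interval -0.47 to -0.00, adjusted p = 0.837) and then Gstm1 at -0.29 (95% interval -0.58 to 0.00, adjusted p = 0.843), and in both genes the KO and SCR arrays overlapped. The arrays of KO and SCR medium did not overlap in 4 genes (13.8%, against 9.37% of all genes tested), which were Txnip, Keap1, Glrx and Prdx4. Keap1 differed by -0.11 (adjusted p = 0.855), Glrx by 0.10 (adjusted p = 0.988) and Prdx4 by -0.06 (adjusted p = 0.995).

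The addition of CSH to SCR medium likewise gave no call by limma among the 29 genes, and 0% of all genes tested were called higher and 0% lower. None of the 29 was called under the alternative settings run either. An unadjusted p below 0.05 was found for 1 of 29 genes, against 6.24% of all genes tested. The median difference was 0.02 for these genes and 0.01 for all genes tested, and the 95% intervals together ran from -0.47 to 0.41. Prdx2 had the smallest p. Its difference was 0.14 (95% interval 0.00 to 0.27, adjusted p = 0.793), with the 3 arrays of SCR medium with CSH above the 3 of SCR medium. Sod2 (0.11, adjusted p = 0.866) and Glrx (0.12, adjusted p = 0.867) were the other genes whose arrays did not overlap, 3 in all (10.3%, against 8.59% of all genes tested). Nfe2l2 differed by 0.11 (95% interval -0.06 to 0.28), and Srxn1 by -0.05 (95% interval -0.31 to 0.21).

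**Figure D5:**
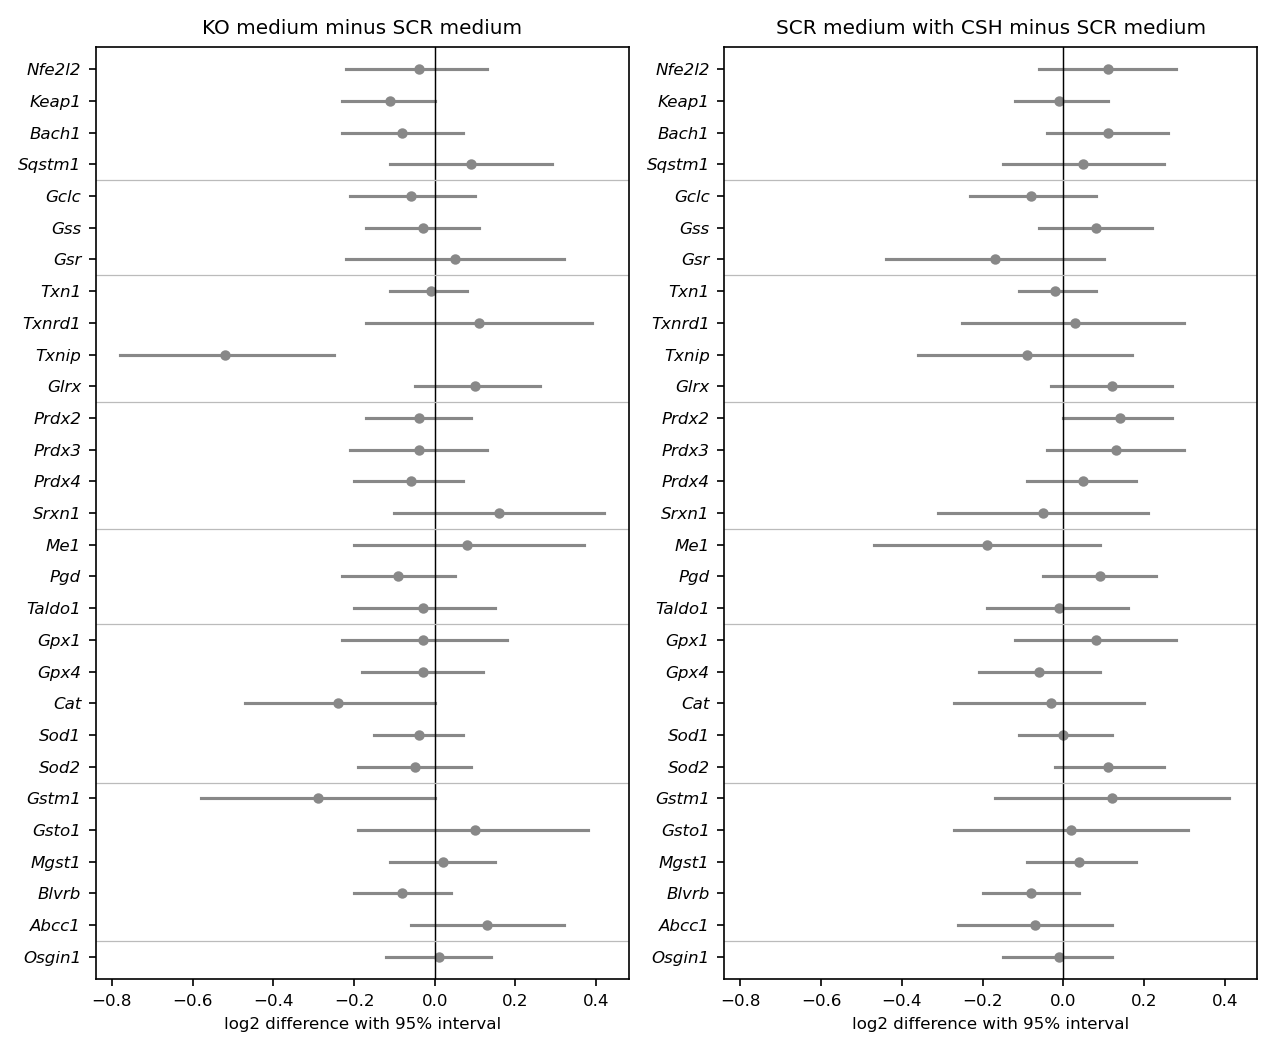
Differences of KO medium (left) and of SCR medium with CSH (right) from SCR medium for the 29 tested genes (log2 scale, points) with 95% intervals not adjusted for the number of genes (lines), ordered by role. Both panels use the same 3 SCR arrays, and no gene passed the adjusted test in either. Txnip in KO medium lies farthest from 0, at -0.52.

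KO medium and SCR medium with CSH were compared directly, again with no call among the 29 genes, higher (1.21% of all genes tested) or lower (0.695% of all genes tested). An unadjusted p below 0.05 was found for 8 of 29 genes, against 15.7% of all genes tested. Txnip differed by -0.42 (95% interval -0.69 to -0.16, adjusted p = 0.11) and Gstm1 by -0.41 (95% interval -0.70 to -0.12, adjusted p = 0.162), with KO medium lower and the arrays apart in both. Pgd differed by -0.19 (95% interval -0.33 to -0.05, adjusted p = 0.18), and its arrays were apart too. So were those of other genes of the 29, among them Keap1, Bach1, Prdx2, Sod2 and Abcc1. The share of all genes with arrays apart was not counted for this comparison, so no weight is put on it. Without normal replicate 3 Txnip passed (adjusted p = 0.0464).

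Other genes of the same pathways were counted in 4 lists. Of 18 tested NRF2 targets outside the 36 genes, 7 (38.9%) were higher under SCR medium than under normal medium, 3 (16.7%) lower and 8 not called, with a median difference of 0.08. Over all genes tested 19.3% were higher and 15.8% lower, with a median difference of 0.02, and the shares in the 4 lists are read against these. The 4 lists too were chosen with earlier results of these data known. Slc7a11, the cystine transporter that feeds glutathione synthesis, averaged 12.35 ± 0.23 in SCR medium and 10.99 ± 0.04 in normal medium (SD, n = 3 each; difference 1.36, adjusted p = 4.12e-07). Hmox1, haem oxygenase 1, averaged 12.27 ± 0.21 in SCR medium and 11.22 ± 0.21 in normal medium (SD, n = 3 each; difference 1.05, adjusted p = 0.000111). Ephx1, microsomal epoxide hydrolase, averaged 9.47 ± 0.08 in SCR medium and 13.01 ± 0.19 in normal medium (SD, n = 3 each; difference -3.53, adjusted p = 4.75e-10), and Gstp1, a pi-class glutathione transferase, differed by -0.43 (adjusted p = 4.29e-05). Targets of NRF2 thus lay on both sides of 0 outside the 36 genes as well. Their share called higher (38.9%) was above that of all genes tested (19.3%), while their share called lower (16.7%) was near it (15.8%).

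Among 13 other regulators 5 (38.5%) were higher, 1 (7.69%) lower and 7 not called (median 0.11). Sesn2, a stress-induced sestrin, was higher by 1.09 (adjusted p = 2.07e-06) and Nfe2l1, the NRF2 relative that controls proteasome genes, by 0.73 (adjusted p = 7.97e-06). Sesn1, another sestrin, was the gene called lower (-2.06, adjusted p = 1.78e-07), so these relatives moved in opposite directions. Among 34 other enzymes of the glutathione, thioredoxin and glutaredoxin systems 10 (29.4%) were higher, 7 (20.6%) lower and 17 not called (median -0.00). Esd, S-formylglutathione hydrolase, was higher by 1.13 (adjusted p = 4.87e-07) and Chac1, which degrades glutathione, by 1.11 (adjusted p = 5.26e-06). Mgst2 (-1.93, adjusted p = 2.31e-07) and Mgst3 (-1.87, adjusted p = 1.07e-07), both membrane-bound glutathione transferases, were lower.

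Among 16 other enzymes of NADPH supply and the pentose phosphate pathway 4 (25%) were higher, 5 (31.2%) lower and 7 not called (median -0.09). Aldh1l2, a mitochondrial folate enzyme that yields NADPH, was higher by 2.61 (adjusted p = 7.65e-09) and Rpe, ribulose phosphate epimerase, by 1.04 (adjusted p = 4.2e-06). Idh2, the mitochondrial isocitrate dehydrogenase that makes NADPH, fell by 0.90 on the log2 scale (adjusted p = 1.36e-06), and Mthfd1, a cytosolic folate enzyme, fell by 0.51 (adjusted p = 0.0013). None of the genes of the 4 lists was called in KO medium or in SCR medium with CSH against SCR medium. Between KO medium and SCR medium with CSH, 3 NRF2 targets were called. Ephx1 averaged 9.07 ± 0.16 in KO medium and 9.72 ± 0.11 in SCR medium with CSH (SD, n = 3 each; difference -0.65, adjusted p = 0.00959). Slc7a11 (0.41, adjusted p = 0.0482) and Ugdh, UDP-glucose dehydrogenase (0.28, adjusted p = 0.0342), were higher in KO medium, but these calls ended under 13 and 10 of 23 alternative settings, among them leaving out KO replicate 1, KO replicate 2 or any array of SCR medium with CSH.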

How the data were processed

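The deposited table holds log2 signals that the authors made with RMA in Affymetrix Expression Console on mm10, per the submitters' processing notes; the sources used here state no versions, probe filters or batch steps. RMA puts the arrays on a common scale and compresses changes of dim genes. Of 65528 probe sets, 31018 had 1 gene symbol in the platform table, 1478 several and 33032 none, after symbols were updated through RefSeq's GRCm38.p6 gene table. The brightest probe set by mean stood for each of 439 genes with more than 1, and 0 of the 36 members were among them. A gene was tested (18119 genes) where its signal exceeded the median signal of its array on 3 or more of 12 arrays.

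limma 3.58.1 in R 4.3.3 was fitted with lmFit on the 4 groups over all 12 arrays (8 residual degrees of freedom, median residual SD 0.096) and eBayes with an intensity trend. Adjusted p is Benjamini-Hochberg over all genes tested, called below 0.05. The fit was also run on simulated arrays with independent noise for each gene and changes put into SCR medium. That simulation held no shifts shared by the genes of an array, so it cannot show how the fit handles them. No pair of arrays was identical. The members and the other gene lists were chosen with earlier results of these data known. Values on every array are given for Nfe2l2, Keap1, Bach1 and Nqo1, for the 5 largest called rises and falls in SCR medium against normal medium, and for the 3 smallest p where a comparison called no member; in the other lists the 2 largest called rises and falls are named. Genes called between KO medium and SCR medium with CSH in those lists, and markers with values, were named after their values were seen. Promoter windows came from RefSeq, and motifs were searched on both strands. Alternatives covered filters, scaling, eBayes settings, array weights, probe sets, replicate blocks, 6 arrays alone and leaving out each array.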

Additional observations from a re-analysis of the deposited data

How the results depend on the processing

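Gene by gene, the alternatives were run for called members, for the smallest p where a comparison called none, and for genes named from the 4 lists. They were not run for the markers or for other differences not called, such as those of Gpx1, Gss and Taldo1. No direction was reversed where they were run. Of the 19 genes called in SCR medium against normal medium, 15 kept their call in 23 of 23 settings, and Gclc, Blvrb, Prdx3 and Txn1 did not. Requiring a fold of at least 1.2 left 6 genes higher and 4 lower in SCR medium, 6 and 6 in KO medium, and 6 and 4 in SCR medium with CSH, each against normal medium, since that test asks for a larger change. With array weights 1 gene, Txnip, was lower in KO medium than in SCR medium, and the cause was not tested. Leaving out each of the 12 arrays gave 0 to 1 genes lower between KO medium and SCR medium with CSH, 7 to 11 higher and 8 to 10 lower between SCR medium and normal medium, 7 to 10 higher and 10 lower between KO medium and normal medium, and 9 to 11 higher and 8 to 11 lower between SCR medium with CSH and normal medium. Over all genes tested, the same step gave 2790 to 3726 higher and 2334 to 2864 lower between SCR medium and normal medium. It gave 3236 to 4055 higher and 2657 to 3332 lower between KO medium and normal medium. Between SCR medium with CSH and normal medium it gave 2981 to 3977 higher and 2193 to 2830 lower. Between KO medium and SCR medium with CSH it gave 25 to 142 lower. Same-numbered arrays of different groups deviated together at a correlation over 0.1 in 5 of 12 pairs (-0.07 to 0.29, median 0.07). Arrays with other numbers did so in 8 of 42 pairs (-0.23 to 0.21, median -0.05). No label says that the numbers pair samples, so the main fit did not use them and a replicate block was an alternative. With a replicate block 8 members were higher and 10 lower in SCR medium, 8 and 11 in KO medium, and 9 and 11 in SCR medium with CSH against normal medium, and 0 were called in the other comparisons. The all-gene counts against normal medium with this block are not given here, so these member counts stand without that share. Over all genes tested, calls in KO medium against SCR medium numbered 46 higher and 3 lower, 220 and 156 with array weights, 30 and 9 with a replicate block and 8 and 0 at a fold of at least 1.2. Those for CSH numbered 55 higher and 24 lower with array weights, and between KO medium and SCR medium with CSH they ran from 27 to 387 higher and from 0 to 286 lower. At a fold of at least 1.2 all-gene calls against normal medium were 1068 higher and 990 lower in SCR medium, 1493 and 1212 in KO medium, and 1068 and 937 in SCR medium with CSH. Other scalings moved the median of all genes by 0.02 or less. Genes near array background, such as Nqo1 and Mgst1, carry little signal to show a change.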
